A study of Mus musculus with 6 samples.

Results

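Keratin genes and keratin-associated protein genes were examined for DNA methylation in cultured mouse spermatogonia. The members were all genes whose symbol begins with Krt and a digit or with Krtap, at any distance between a CpG site and the closest transcription start site (TSS). The table listed 1896 CpG sites nearest 89 such genes, 53 keratin genes and 36 keratin-associated protein genes. A site was used if it had at least 10 reads in all 6 samples, here called a commonly covered site. This left 389 of 681804 commonly covered sites, in 56 of 26646 genes (41 keratin and 15 keratin-associated protein genes), while 33 members had no such site. The share of sites kept was 20.5% for the members and 30.1% for the whole table.

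The samples were 3 replicates of Space GS cells, frozen and kept for 6 months on the International Space Station, and 3 replicates of Ground GS cells, frozen and kept for 6 months on Earth. GS cells are spermatogonia grown in culture that include spermatogonial stem cells. All 6 samples had the genotype DBA/Tg14(act-EGFP-OsbY01), so cells of both groups carried the EGFP transgene and both had been frozen and thawed. The paper states that the cells were cultured and passaged after thawing, before their methylation was read. The cells were grown on mouse embryonic fibroblasts, and the share of fibroblast DNA in the samples was not measured here. Methylation was read by reduced representation bisulfite sequencing (RRBS), which cuts DNA at CCGG and counts methylated and unmethylated reads at each CpG site. A level is the percent of methylated reads, errors are SDs over replicates, and no cell type was called from these data.

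Keratins form the intermediate filaments of epithelial cells, in which an acidic type I chain pairs with a basic type II chain. Krt8 and Krt18, together with Krt7 and Krt19, are the keratins of simple epithelia such as gut lining and ducts. Epidermis, cornea and oral mucosa use other pairs in layered cells. The inner root sheath and the hair shaft have their own keratins, and keratin-associated proteins cross-link the filaments of the hair shaft. In the mouse most type I genes lie in a cluster on chromosome 11 with many Krtap genes, and the type II genes and Krt18 lie in a cluster on chromosome 15. Of the 389 sites, 137 were on chromosome 11, 210 on chromosome 15, 38 on chromosome 16, 3 on chromosome 10, and 1 on chromosome 7.

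The promoter sequences show how few CpG sites most of these genes offer. Of the 89 members, 69 matched the RefSeq promoter table (GRCm38.p6) by symbol, with 70 windows of 300 bases that run from 250 bases upstream of the start to 50 bases downstream. CpG was counted as the letters CG, which read the same on both strands. The member windows held a median of 3.5 CpG, against 7 over all 32851 windows, and 4 of the 70 had 10 or more CpG (5.71%), against 43.5% of all windows. The letters CCGG, which hold a CpG and also read the same on both strands, were in 32.9% of the member windows and in 52.8% of all windows. The 4 CpG-rich windows belonged to Krt7 (21 CpG), Krt18 (17), Krt72 (11), and Krt28 (10). Krt8 had 6 CpG, Krt19 had no entry, and 5 of 33 keratin-associated windows had none. The 5 upstream stretches below show the range of CpG number among these genes, from Krt18 and Krt7 over Krt72 and Krt26 (6 CpG in its window) to Krt10 (2 CpG). Commonly covered sites upstream of the TSS were found for Krt18 (5) and Krt26 (2), while all promoter sites of Krt72 and Krt10 lay downstream of it and Krt7 had none, so no level was measured in the stretches printed for these 3 genes. Each is 250 bases long, from GRCm38.p6, written 5′ to 3′ on the gene's strand, with each CG in capitals.
Krt18 (chr15:102027966-102028215, plus strand): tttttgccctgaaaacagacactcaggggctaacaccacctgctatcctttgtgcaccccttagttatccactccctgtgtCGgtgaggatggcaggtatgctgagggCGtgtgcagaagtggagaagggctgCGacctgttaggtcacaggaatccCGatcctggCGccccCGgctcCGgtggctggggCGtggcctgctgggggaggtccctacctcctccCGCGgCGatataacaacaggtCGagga
Krt7 (chr15:101412153-101412402, plus strand): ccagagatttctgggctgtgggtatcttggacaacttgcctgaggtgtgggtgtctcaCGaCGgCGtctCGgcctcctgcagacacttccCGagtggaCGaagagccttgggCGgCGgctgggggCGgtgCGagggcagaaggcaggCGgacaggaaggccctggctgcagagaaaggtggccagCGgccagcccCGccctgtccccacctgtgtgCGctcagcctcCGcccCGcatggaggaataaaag
Krt26 (chr11:99337966-99338215, minus strand): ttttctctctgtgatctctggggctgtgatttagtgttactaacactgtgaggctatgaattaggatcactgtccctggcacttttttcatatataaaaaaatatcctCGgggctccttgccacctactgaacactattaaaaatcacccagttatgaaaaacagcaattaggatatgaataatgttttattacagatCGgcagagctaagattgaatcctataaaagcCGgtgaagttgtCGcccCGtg
Krt72 (chr15:101786521-101786770, minus strand): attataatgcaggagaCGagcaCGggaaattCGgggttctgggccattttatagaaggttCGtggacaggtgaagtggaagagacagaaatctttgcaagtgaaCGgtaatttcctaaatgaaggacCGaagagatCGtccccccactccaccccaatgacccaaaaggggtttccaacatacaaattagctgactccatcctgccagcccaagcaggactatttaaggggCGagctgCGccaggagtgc
Krt10 (chr11:99389365-99389614, minus strand): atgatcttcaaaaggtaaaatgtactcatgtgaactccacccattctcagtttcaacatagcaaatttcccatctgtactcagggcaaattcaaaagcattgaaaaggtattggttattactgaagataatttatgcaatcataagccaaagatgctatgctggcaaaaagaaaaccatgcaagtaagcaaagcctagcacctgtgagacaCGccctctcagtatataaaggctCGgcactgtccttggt

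Across distance classes, the members stood apart from the whole table near the TSS. Within 1 kb of the TSS, here called the promoter, the median level of the 119 member sites was 24.6%, against 1.53% over 390568 sites of all genes. Only 37.0% of the member sites were below 10%, against 98.7% of all sites, and 44.5% lay between 10% and 90%, against 0.845%. From 1 kb to 5 kb the median of 103 member sites was 89.5%, against 2.33% over 82166 sites. Farther than 5 kb the shares were close to each other, with 36.5% of 167 member sites below 10% and 43.7% above 90%, against 38.2% and 42.3% of all sites. The promoter class held 30.6% of the member sites and 57.3% of all sites. Neighbouring sites often lie on the same reads, and the 389 sites formed 196 runs with equal coverage in every sample, so sites are not independent measurements and no test was made of these shares.

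**Figure D1:**
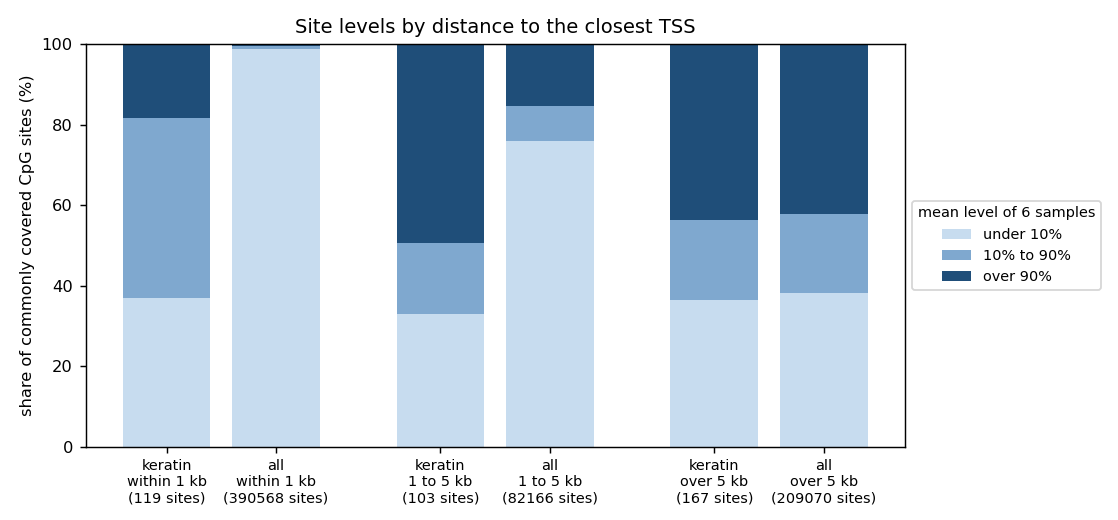
Share of commonly covered CpG sites (%) with a mean level of the 6 samples under 10%, from 10% to 90%, or over 90%, for keratin and keratin-associated genes and for all genes, by distance to the closest TSS. In the promoter class 37.0% of the keratin sites and 98.7% of all sites are under 10%, while the bars for sites over 5 kb away are nearly equal.

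For gene levels, the reads of all sites of a gene in a distance class were summed. Of the 91 such combinations of a member and a class, 46 had at least 3 sites. In promoters, 25 members had a commonly covered site and 14 had at least 3. The median level of these 14 promoters was 15.9%, with 5 below 10% and 2 above 80%. Over all genes the median of 14373 promoters was 1.82%, and 95.3% were below 10%.

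Krt18 was the only simple-epithelial keratin with commonly covered promoter sites. Its 13 sites, 56 to 696 bp from the TSS on chromosome 15 (101936395 to 101937310, mm39), had 1.14%, 3.54%, and 1.08% methylated reads in Space GS cells and 3.46%, 1.10%, and 0.697% in Ground GS cells. The replicates of both groups overlapped, at 1.92% ± 1.40 and 1.75% ± 1.49 (SD, n = 3 each). The level changed sharply along the gene. At 5 sites 56 to 219 bp upstream, no read was methylated in any sample. At 11 to 19 reads a site and sample, this allows a level of up to 27.3% at the shallowest and 15.8% at the deepest. The sites 160 to 204 bp downstream were at 1.53%, those 444 to 477 bp downstream at 3.94%, and those 645 to 696 bp downstream at 4.03%. At 8 sites 1260 to 1352 bp downstream the level was 97.4% ± 1.23 (SD over 6 samples), from 95% to 98.3%. A group of 5 sites 2477 to 2570 bp upstream had 2.85%, and 4 sites 14073 to 14286 bp downstream had 4.11%. The methylated sites in the gene thus lay between commonly covered sites of low methylation in every sample. No commonly covered site lay between 1849 and 14073 bp downstream, so the end of the methylated stretch was not measured. At any coverage, Krt18 had 30 sites beyond 5 kb, with 440 of 1015 reads methylated over the 6 samples.

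The 3 other simple-epithelial keratins were barely covered near the TSS. Krt19, a type I keratin of ducts, had 3 sites 224 to 297 bp downstream of the TSS with 17 reads each over the 6 samples, and 46 of these 51 reads were methylated. In contrast, 9 commonly covered Krt19 sites 3216 to 3328 bp downstream had 0.889%, 1.39%, and 4.83% in Space GS cells and 6.94%, 0%, and 1.52% in Ground GS cells. All were below 10%, and the groups overlapped. GENCODE M21 (GRCm38) lists 3 transcript starts for Krt19. The table's TSS had the same spacing to the TSS of Krt9 as the outermost start (44581 bp), and the next start was 2545 bp downstream of it. Counted from that start, the 9 sites lay 671 to 783 bp downstream, inside the promoter window used here. The distance class of Krt19 therefore depends on which start is taken.

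Krt8, the type II partner of Krt18, had 2 sites 40 and 57 bp downstream of the TSS with 0 methylated reads of 10 each over the 6 samples, which allows up to 30%. Its 4 commonly covered sites 3717 to 3905 bp upstream were at 97.9% ± 1.88 (SD over 6 samples). Krt7, a type II keratin of ducts and glands, had no commonly covered site at any distance. It had 2 sites 912 and 948 bp upstream of the table's TSS, with 35 of 36 reads methylated. The RefSeq start of Krt7, in front of which the CpG-rich sequence above lies, is 1360 bp downstream of the outermost GENCODE start. The table's TSS had the spacing of the outermost start to the TSS of Krt81 (52708 bp), so these sites do not cover the CpG-rich stretch. Within 1 kb of the table's TSS, the highest coverage in any sample was 6 reads for Krt7, 4 for Krt8, and 6 for Krt19, so only Krt18 had a promoter level by the definition used here.

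Among keratins of stratified epithelia, the promoters were mostly methylated at the sites covered, which all lay 96 to 632 bp downstream of the TSS. Of the 4 genes with at least 3 sites, 2 were above 80%. Krt10, the type I keratin of the upper epidermal layers, had 8 sites 433 to 632 bp downstream with 96.3%, 99.2%, and 96.7% in Space GS cells and 96.8%, 98.8%, and 97.1% in Ground GS cells. All 6 values were close to full methylation. Krt42 was at 97.4% over 4 sites. Krt5, the type II keratin of the basal layer, was at 96.5% and Krt76, a keratin of oral mucosa, at 96.3%, with 2 sites each. Krt12, the keratin of the cornea, had 2 sites at 80.1% on average, ranging from 66.7% to 89.6% between replicates. Krt79, which marks the duct region of the hair follicle, was intermediate, with 47.3%, 33.5%, and 39.2% in Space GS cells and 43.1%, 27.6%, and 50% in Ground GS cells over 7 sites. Krt4, a keratin of the esophagus, had the lowest level of this group, 15.4% ± 4.51 (SD over 6 samples) over 3 sites. The 7 genes of this group with commonly covered promoter sites therefore ran from low to full methylation, and none of their 28 such sites was below 10%.

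Keratins of the inner root sheath had lower promoter levels, at sites 3 to 488 bp from the TSS. None of their 44 commonly covered promoter sites was above 90%. Krt27 had 4.17%, 0%, and 3.57% in Space GS cells and 0.885%, 8.02%, and 1.85% in Ground GS cells over 6 sites. Krt26 had 5.38%, 3.21%, and 6.54% in Space GS cells and 3.20%, 2.33%, and 2.49% in Ground GS cells over 11 sites. Both are type I chains of the sheath and lie near each other on chromosome 11. The type II chains on chromosome 15 were at 11.4% (Krt73, 3 sites), 21.3% (Krt71, 4 sites), and 36.6% (Krt72, 18 sites). Krt72 had 36.7%, 36.0%, and 32.3% in Space GS cells and 51.7%, 35.9%, and 27.3% in Ground GS cells. Its 18 sites lay 38 to 331 bp downstream of the TSS and had mean levels between 14.8% and 55.4%. The intermediate level was therefore found along the whole stretch, with no site near 0% or 100%. Krt28, with 2 sites 84 and 96 bp downstream, was at 17.0%.

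Hair shaft genes covered the whole range. Krt87, a type II hair keratin, had 2.38%, 1.45%, and 1.18% in Space GS cells and 1.51%, 6.39%, and 1.73% in Ground GS cells over 9 sites. Krt81, another type II hair keratin, was at 16.4% ± 6.39 over 6 sites, and Krt35, a type I hair keratin, at 50.9% ± 5.03 over 5 sites (SDs over 6 samples). Krt35 was lowest nearest to the start, with 27.2% at 133 to 135 bp downstream, 53.7% at 527 to 565 bp downstream, and 93.8% at 767 bp upstream. With 2 commonly covered promoter sites each, Krt82 was at 68.7%, Krt84 at 71.3%, and Krt83 at 97.3%.

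Of 12 keratin-associated protein genes with a listed promoter site, only 3 had a commonly covered one. Krtap17-1 had 0%, 1.45%, and 9.68% in Space GS cells and 4.17%, 2.86%, and 0.909% in Ground GS cells over 3 sites within 22 bp of the TSS. Krtap16-1 was at 97.9% over 2 sites, and Krtap5-4 at 98.7% at 1 site. Levels at both ends of the scale thus occurred within this family. Of the keratins outside the named roles, Krt23 and Krt80 had 1 commonly covered promoter site each, at 41.2% ± 9.31 and 60.0% ± 6.97 (SDs over 6 samples).

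**Figure D2:**
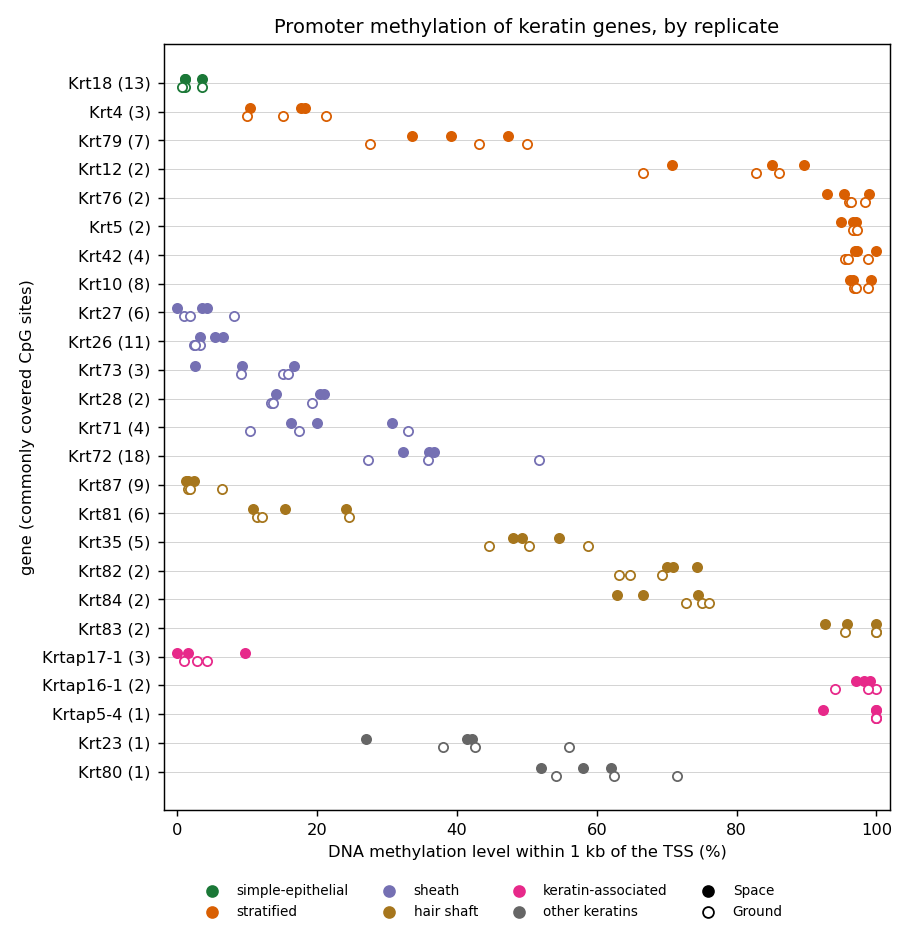
DNA methylation level within 1 kb of the TSS (%) of the 25 members with a commonly covered promoter site, with the number of sites in parentheses. Each point is a replicate, filled for Space GS cells and open for Ground GS cells, and colors give the role of the gene. Krt18 lies at the left edge together with Krt27, Krt26, Krt87, and Krtap17-1, while Krt10 and Krt42 lie at the right edge.

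The comparison of simple-epithelial keratins with skin and hair genes came down to Krt18 against 13 promoters with at least 3 sites. Their unweighted mean was 32.0%, 28.4%, and 31.5% in Space GS cells and 32.0%, 31.2%, and 29.4% in Ground GS cells. The mean exceeded the level of Krt18 by 28.9 percentage points (SD 2.21 over 6 samples), ranging from 24.8 to 30.9, and was higher in 6 of 6 samples. For 8 of the 13 genes, every sample was above the highest Krt18 value. Low levels were not particular to Krt18, since Krt87, Krt27, Krtap17-1, and Krt26 were also below 10%, and the replicates of these 5 promoters overlapped, between 0% and 9.68%. The gap depended on the sites required and on where the promoter was set to end. With at least 1 site per promoter it was 49.2 percentage points over 22 skin and hair genes. Within 2 kb of the TSS it was 0.960 percentage points, where the window also took in the 8 methylated Krt18 sites 1260 to 1352 bp downstream. No test was made of the gap, since genes are not replicates and 1 gene stood for the simple-epithelial keratins.

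**Figure D3:**
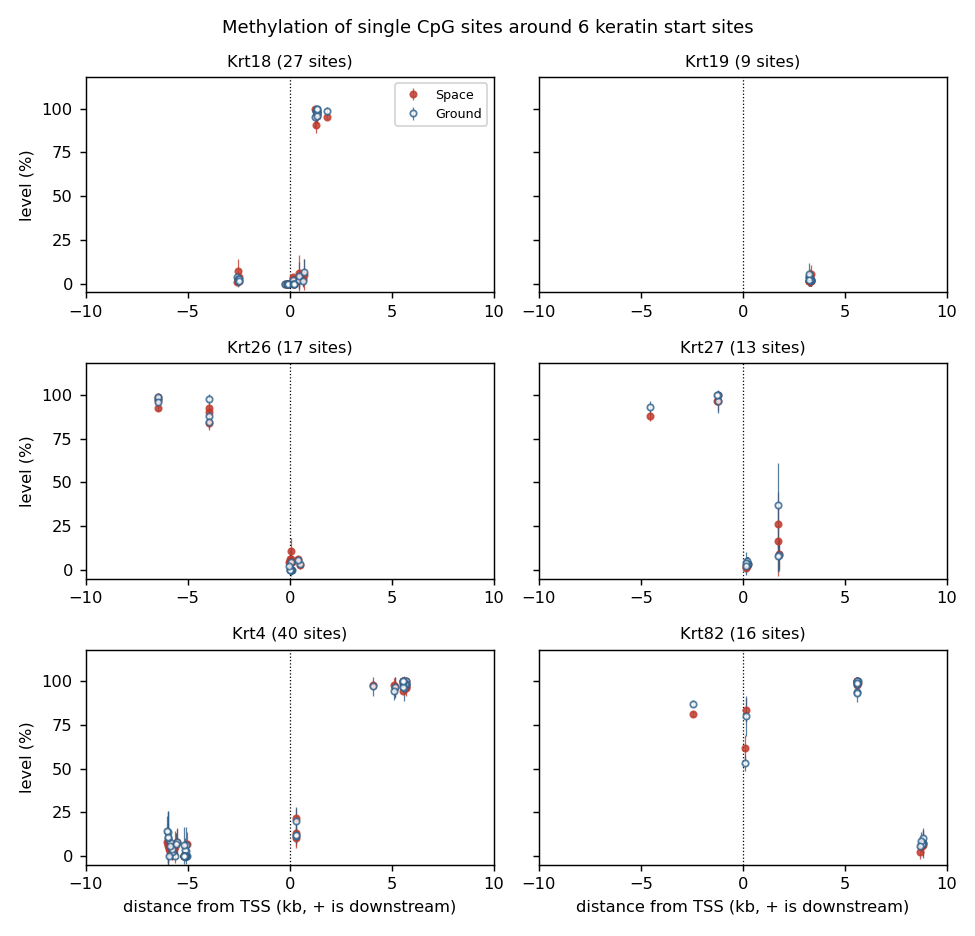
Level (%) of single sites up to 10 kb from the TSS of Krt18, Krt19, Krt26, Krt27, Krt4, and Krt82, against distance from the TSS in kb, with downstream positive. Points are means of 3 replicates of Space GS cells (filled) and Ground GS cells (open), with SD bars. Low and high levels sit in separate short stretches, such as the Krt18 sites below 10% around the TSS and near 97.4% at 1260 to 1352 bp downstream.

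Low and high stretches also alternated away from the start sites. Beyond 1 kb, 32 combinations of a member and a class had at least 3 sites, of which 7 were below 10% and 11 above 80%. From 1 kb to 5 kb, 23.1% of the member combinations were below 10% and 38.5% above 80%, against 47.5% and 28.2% over all genes. Farther than 5 kb the shares were 21.1% and 31.6%, against 9.71% and 45.4%. Low and high levels were thus not particular to the members, and no test was made of these shares. The genes named in this paragraph, other than Krt18, Krt19, Krt26, Krt27, and Krt4, were chosen after their values were seen. Krt4 had 12 sites 5029 to 5171 bp upstream at 1.12% and 10 sites 5541 to 5717 bp downstream at 98.2%. Krt1, the type II partner of Krt10, had 8 sites 4687 to 4792 bp downstream at 2.09%. Similarly low levels were found at 10 sites 4078 to 4169 bp upstream of Krtap31-2 (2.38%) and at 11 sites 23170 to 23255 bp upstream of Krt78 (2.24%). Krt82 had 7 sites at 7.03% 8688 to 8841 bp downstream and 6 sites at 98.3% 5569 to 5615 bp downstream. Of these genes, Krt1, Krtap31-2, and Krt78 had no commonly covered promoter site to compare with. Krt26 was at 3.86% in the promoter and at 89.4% 3932 to 3948 bp upstream, and Krt27 at 3.08% and at 98.3% 1216 to 1270 bp upstream. The high stretches of both sheath genes thus lay upstream of a promoter with low methylation.

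Promoter CpG number and level could be set side by side in 19 members with a RefSeq window and a commonly covered promoter site. Krt18, with 17 CpG, had the lowest level of these, 1.84%. Krt72 and Krt28, with 11 and 10 CpG, were at 36.6% and 17.0%. At 6 CpG the levels ran from 3.08% (Krt27) to 96.5% (Krt5), and Krt10 and Krt42, with 2 CpG each, were at 97.5% and 97.4%. A count of 6 CpG in the window thus went with both low and full methylation of sites within 1 kb. The windows come from GRCm38.p6 and the levels from mm39, matched by gene symbol only. The windows end 50 bases downstream of the RefSeq start, while the levels use sites up to 1 kb from the table's TSS. The sites lay 141 to 231 bp downstream for Krt27, 315 to 420 bp for Krt5, and 433 to 632 bp for Krt10. The CpG counted and the CpG measured are therefore not the same set.

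**Figure D4:**
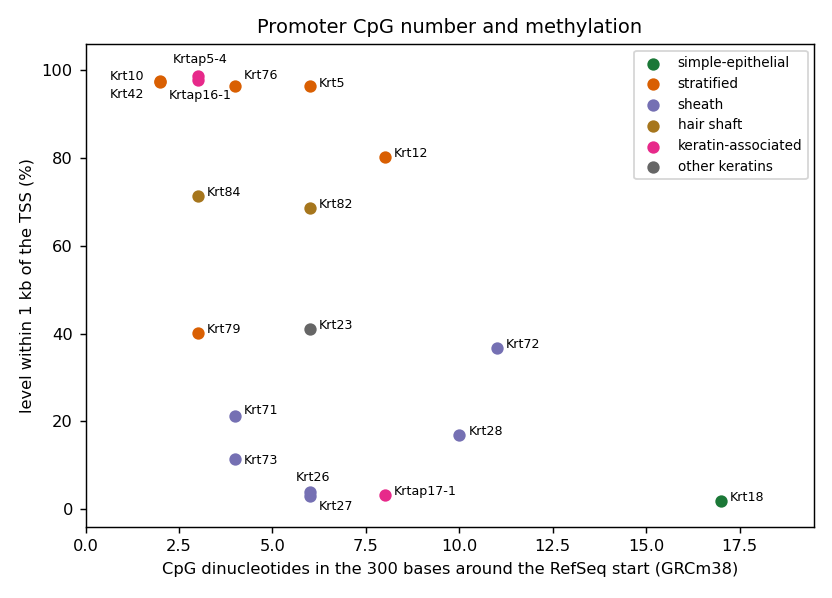
Level within 1 kb of the TSS (%) against the number of CpG dinucleotides in the 300 bases around the RefSeq start (GRCm38), for the 19 members with both values. Points are means of 6 samples, colored by role, and the sites measured need not lie in the 300 bases. Krt18 stands alone at 17 CpG with 1.84%, and genes with 6 CpG spread from 3.08% to 96.5%.

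Space and Ground GS cells were then compared gene by gene, to ask whether storage in space went with a change in methylation of these genes. Methylated reads out of total reads were tested with a quasi-binomial model, fitted to all genes and classes with at least 3 sites and a mean level of 5% to 95%, and the spread between replicates was moderated by limma. No member passed at a Benjamini-Hochberg adjusted p of 0.05, 0 of 24 tested, and over all genes the share was 0% of 12844. At an unadjusted p below 0.05 there was 1 member, against 5.02% of all genes and classes tested, and edgeR and limma on log2 ratios also called 0 and had 1 each. The other 22 members and classes with at least 3 sites were outside 5% to 95% and were not tested. Of the 46, 25 were higher in Space GS cells and 21 lower, with a median difference of 0.0429 percentage points, against 0.122 over all genes. The replicates of both groups did not overlap in 3 of the 46 (6.52%), against 9.54% of all genes and classes.

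The member with the unadjusted p was Krtap27-1, a hair keratin-associated protein gene. At 4 sites 12329 to 12347 bp upstream it had 32.9%, 40.0%, and 44.1% in Space GS cells and 23.0%, 30.8%, and 32.7% in Ground GS cells. Each Space value was above all Ground values, with a lowest Space value of 32.9% and a highest Ground value of 32.7%. The difference was 10.2 percentage points (39.0% ± 5.66 against 28.8% ± 5.13), and the adjusted p of the quasi-binomial model with limma was 0.955. The exact permutation test (two-sided) gave p = 0.1, the smallest that 3 against 3 samples allow. The 4 sites lie within 19 bp and share their reads.

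Krt18 from 1 kb to 5 kb had the next smallest p. Its 14 sites gave 65.2%, 62.0%, and 55.1% in Space GS cells and 51.4%, 54.7%, and 56.0% in Ground GS cells. The groups overlapped, and their means differed by 6.73 percentage points (adjusted p = 0.955 in the limma-moderated model). The 5 low upstream sites were at 3.04% and 2.66%, and the 8 high downstream sites at 96.7% and 98.0%, in Space and Ground GS cells, so neither stretch moved by the size of the summed difference. Among members and classes with at least 3 sites, the next differences in size overlapped between groups. Krtap16-3 beyond 5 kb differed by -7.06 percentage points (46.3%, 61.4%, and 65.4% against 66.7%, 62.6%, and 65.1%). Its 4 sites 8533 to 8615 bp downstream were at 86.8% in Space and 88.1% in Ground GS cells. Its 2 sites 5720 to 5731 bp upstream were at 1.67% and 0.952%, so here too neither stretch moved by the size of the summed difference. Krtap11-1 from 1 kb to 5 kb differed by 6.03 (36.2% ± 6.35 against 30.2% ± 12.6), Krt80 beyond 5 kb by 4.92 (79.6% ± 2.85 against 74.7% ± 6.84), and Krt27 from 1 kb to 5 kb by -4.33 (65.6% ± 0.219 against 69.9% ± 5.48). In all of these the replicates of both groups overlapped, and the adjusted p was 0.972 or higher. Of the 45 members and classes with fewer than 3 sites, which were not tested as genes, 4 had groups that did not overlap. These were Krt87 from 1 kb to 5 kb (97.3% ± 2.63 against 87.9% ± 6.56 at 1 site), Krt82 in the promoter (71.7% ± 2.22 against 65.7% ± 3.19 at 2 sites) and from 1 kb to 5 kb (81.1% ± 1.76 against 87.1% ± 2.05 at 1 site), and Krt15 beyond 5 kb (98.2% ± 1.53 against 96.2% ± 0.278 at 2 sites). The share over all genes and classes with fewer than 3 sites was not counted. With at least 3 sites, 9.54% of all genes and classes did not overlap, so these 4 are not read as a result.

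In promoters with at least 3 sites, the largest differences were -3.88 percentage points at Krt73, -3.29 at Krt72, and 2.37 at Krt26. Krt73 had 16.7%, 2.56%, and 9.26% against 15.2%, 15.9%, and 9.09%, and the groups overlapped, as they did at Krt72. Krt26 did not overlap, with a lowest Space value of 3.21% and a highest Ground value of 3.20% (5.04% ± 1.69 against 2.67% ± 0.465). The difference lay at 9 sites with equal coverage around the TSS (5.40% against 0.741%), where Space replicates 1 and 3 had 1 methylated read of 17 and of 14 at every site, and the other 2 sites were at 4.68% and 4.62%. The exact permutation test (two-sided) gave p = 0.1, the smallest possible, and the mean level was too low for the quasi-binomial test. For Krt18 the difference was 0.169 percentage points, and for the mean of the 13 skin and hair promoters it was -0.243 (30.6% against 30.9%), both smaller than the spread between replicates. No p-value is given for that mean, since it is a score over chosen genes.

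Single sites were tested in the same way. In the quasi-binomial test 0 of 156 member sites passed, against 0% of 92012 sites, and 6 had an unadjusted p below 0.05 (5.61% of all sites tested did). Other tests also called 0, with 5 such sites in edgeR and 2 in limma on log2 ratios. Of the 389 sites, 191 were higher in Space GS cells, 178 were higher in Ground GS cells, and 20 were equal, with a median difference of 0. In 22 sites (5.66%) the replicates of both groups did not overlap, against 4.99% of all sites. A difference of more than 20 percentage points, the size the study counted, was found at 1 member site (0.257%), against 0.196% of all sites. It lay 234 bp downstream of the Krt12 TSS, with 76.2%, 100%, and 87.5% in Space GS cells and 72.4%, 46.7%, and 83.3% in Ground GS cells. The groups overlapped there, and 10 to 29 reads stood behind each value. The count was 2 to 6 when any 1 of the 6 replicates was left out, and 15 of 680 sites at a minimum of 5 reads. At these settings the share over all sites was not counted, so these counts are not read as a result about the members.

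**Figure D5:**
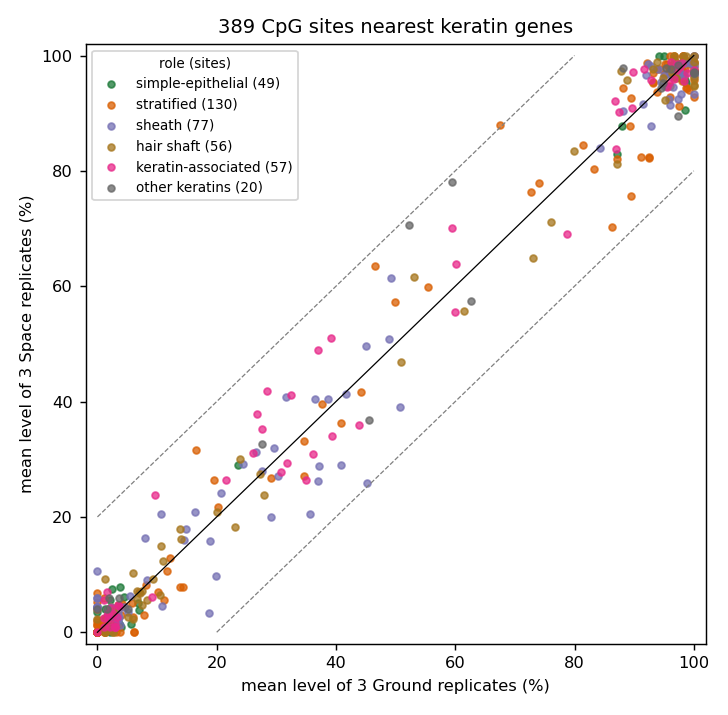
Mean level (%) of the 3 Space replicates against the 3 Ground replicates at the 389 commonly covered sites, colored by role, with the number of sites in parentheses. The solid line marks equal levels and the dashed lines a difference of 20 percentage points, which 1 site exceeds.

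Genes that work with keratins were compared as lists. Within 1 kb, desmosome genes and keratin linkers, which anchor keratin filaments at cell junctions, had a median level of 1.85% over 11 genes with at least 3 sites. Regulators of skin and hair were at 2.18% (8 genes), and other intermediate filament genes, which form the filaments of muscle, nerve, and connective tissue cells and the nuclear lamina, at 1.66% (12 genes). All these medians were near the 1.82% of all promoters and below the 15.9% of the keratin and keratin-associated promoters. Of the cornified envelope genes, 1 had a promoter with at least 3 sites, at 1.10%. Over the 4 lists, 34 combinations of a gene and a class could be tested between Space and Ground GS cells, 2 of them within 1 kb. The quasi-binomial model called 0 of the 34 in either direction, against 0% of all 12844. In the same model 3 of the 34 had an unadjusted p below 0.05, against 5.02% of all 12844.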

How the data were processed

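The authors deposited 1 table for all 6 samples. For each CpG site the authors deposited the read coverage as a count, without normalization, and the percent of these reads called methylated, made from aligned bisulfite reads, together with the closest TSS and its gene. The submitters' processing notes name Trim Galore, Bismark 0.24.2, methylKit, and the build mm39. How both strands of a CpG and duplicated reads were treated is not given in the sources used here. Copies of 1 molecule would make the counts look more precise than they are, so floors (3 reads of the total) cover counting error only.

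Methylated reads were recovered from coverage and percent (largest distance from a whole read 0.000266). Reads summed over all sites ranged from 28535973 to 33743845 per sample. At member sites the median coverage was 22 to 28 reads, from 10 to 85. No replicate pair differed by less than sampling noise (chi-square per degree of freedom 1.30 to 1.44 over all pairs). Distances were counted from the table's TSS in the direction of its strand.

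Sites, and reads summed per gene and distance class (at least 3 sites), were tested over all genes at mean levels of 5% to 95%. The dispersion of the quasi-binomial test was moderated by limma (3.58.1, function squeezeVar, R 4.3.3), and p-values were adjusted by Benjamini-Hochberg at 0.05. The test was also run on simulated data, with changes of 20 percentage points or more and the same dispersion for every feature. How often it would find smaller changes was not measured. Single genes were compared with exact permutation tests. Alternatives were edgeR 4.0.16, limma on log2 ratios with 2 reads added, coverage minimums of 5 and 20 reads, promoters of 500 bp and 2 kb, at least 1 site, other weightings, a replicate block, and leaving out each replicate. The series describes 3 biological replicates per group. The p-values set group differences against the spread between these samples, which the quasi-binomial test moderates with the spread over all features tested. The paper describes a single launch and return, so storage in space itself was not repeated.

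The members, roles, and other lists were chosen with earlier results of these data known. Named genes are the simple-epithelial keratins, for each role the genes with the most promoter sites and with the highest and lowest promoter level, the 3 largest differences in each class, and members with an unadjusted p below 0.05. Other genes were named after their values were seen. Promoter sequences are from the RefSeq table of GRCm38.p6, and coordinates were not converted between builds. Software was pandas (2.3.3), data.table (1.17.8), and matplotlib (3.10.9).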

Additional observations from a re-analysis of the deposited data

How the results depend on the processing

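The gap between the 13 skin and hair promoters and Krt18, 28.9 percentage points, was 37.5 with a minimum of 5 reads, 26.7 within 500 bp, 0.960 within 2 kb, 49.2 with at least 1 site, and 31.2 without keratin-associated genes. With a minimum of 20 reads no value could be given, since Krt18 then had fewer than 3 promoter sites. Leaving out each replicate gave 28.5 to 29.7. The Space minus Ground difference was 0.169 for Krt18 and -0.243 for the skin and hair promoters. Without each replicate these ran from -0.640 to 1.02 and from -0.998 to 0.879, so the sign of both depended on the replicates used. Within 2 kb the Krt18 difference became 7.12, where reads of its low and its methylated stretches are summed. The 8 methylated sites 1260 to 1352 bp downstream were lower in Space GS cells (96.7% against 98.0%). So was the site 1849 bp downstream (95.2% against 98.7%). The largest rise of a stretch within 2 kb was 1.21 percentage points, 444 to 477 bp downstream, so no stretch moved by 7.12.

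No gene and class was called under any of the 13 alternatives. Without a limit on the level, 2 member sites were called in place of 0, both in the Krt26 promoter (19 and 58 bp downstream, each with 5.88%, 4.76%, and 7.14% against 0% in all Ground replicates, adjusted p = 0.0336 in the quasi-binomial test with limma). Each Space value there is 1 methylated read, and both sites have equal coverage, so they are not separate evidence. The test is not well calibrated at the levels near 0% or 100% that this setting adds. In it 10.9% of all 681804 sites had an unadjusted p below 0.05, and 4655 of the 4804 sites called had a mean level outside 5% to 95%. The count of member sites differing by more than 20 percentage points, 1, became 15 with a minimum of 5 reads, 0 with 20, and 2 to 6 when any 1 of the 6 replicates was left out. The share over all sites was not counted under these alternatives, so an excess at the members cannot be read from them. With the replicate block the differences were 0.169 and -0.243, and 0 genes and classes and 0 sites were called. Space and Ground samples with the same replicate number have sample labels that end in consecutive numbers, but the labels do not state a pairing. Their deviations correlated at 0.00994 to 0.0439, against -0.0367 to 0.0146 for samples with other numbers. Of the 6 samples, 5 correlated best with their own number, and the replicate block is the setting that allows for pairs. Within 1 kb of the table's TSS, Krt7, Krt8, and Krt19 had at most 6 reads at a site in any sample, and for Krt7 and Krt19 the sites counted also depend on the start taken.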
